A study of Mus musculus with 12 samples.

Results

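The Ikzf1 locus of the mouse carried a wide stretch of acetylated chromatin in fetal liver at embryonic day 14.5. It was described from every deposited peak that overlapped a fixed window of the mm9 genome build, chr11:11560000-11690000, in which the gene lies near 11585000 to 11673000. The window held 89 of the 353812 peaks in the 11 peak lists of the series. The locus was selected on the width of its H3K27ac region in these libraries, so that width is a description and supports nothing further. All animals were C57BL/6 embryos of day 14.5. Whole fetal liver, a mixture of blood-forming and liver cells, was profiled by ChIP-seq in 9 libraries, 3 of H3K4me1 and 2 each of H3K4me2, H3K4me3 and H3K27ac, and proerythroblasts by ATAC-seq in 2 libraries. No genotype or treatment differed between groups, and the labels do not say whether libraries of a group came from separate litters, so the spread between them may be technical.

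Ikzf1 encodes Ikaros, a zinc finger protein that binds DNA in blood-forming cells and works with chromatin remodelling complexes. It is known above all as a regulator that lymphocytes require, and it is also made in blood progenitors and early red cell precursors. H3K4me3 is a mark of active gene starts, H3K4me1 of enhancers and of the flanks of gene starts, H3K4me2 of both, and H3K27ac of active starts and enhancers. A transposase cuts where DNA is open, and ATAC-seq peaks therefore locate open sites, which are often bound by transcription factors. The marks were read in whole liver and the open sites in proerythroblasts, so whether they occur in the same cells was not tested. In whole tissue, fewer cells with a mark and less of the mark per cell cannot be told apart. The labelled tissues were not checked against marker genes, since no mm9 gene annotation was used here beyond the approximate extent of Ikzf1.

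RefSeq lists Ikzf1 (gene identifier 22778) on the forward strand, and its promoter table gives 2 starts, 4252 bp apart, on GRCm38.p6. That build differs from the one of the peak lists, so neither start was placed among the peaks, and no peak was assigned to an exon, an intron or an untranslated region. The 250 bases before each start are shown because they differ in CpG dinucleotides, which are dense at many gene starts that carry wide H3K4me3. Each CG is in capitals. The upstream start is preceded by chr11:11685675-11685924 and the downstream start by chr11:11689927-11690176, both on the forward strand of GRCm38.p6.
Upstream start: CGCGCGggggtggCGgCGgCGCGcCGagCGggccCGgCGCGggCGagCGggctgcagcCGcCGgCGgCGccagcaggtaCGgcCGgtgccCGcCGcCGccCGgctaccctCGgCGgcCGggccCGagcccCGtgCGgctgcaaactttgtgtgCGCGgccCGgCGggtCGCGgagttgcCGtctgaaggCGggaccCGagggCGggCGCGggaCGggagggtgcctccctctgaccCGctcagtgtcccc
Downstream start: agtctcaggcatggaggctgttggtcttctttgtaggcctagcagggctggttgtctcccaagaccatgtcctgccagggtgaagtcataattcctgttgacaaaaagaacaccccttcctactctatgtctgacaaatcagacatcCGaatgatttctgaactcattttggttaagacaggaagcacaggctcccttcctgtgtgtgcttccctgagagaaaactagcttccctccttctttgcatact

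The upstream sequence held 44 CG dinucleotides, and 99.5% of the 32851 RefSeq promoter windows of the same length held fewer. The downstream sequence held 1, and 7.87% held fewer. Their G and C content was 82% and 47.6%, against a median of 52.4% over all promoters. The letters GATAA, the core of the motif of GATA factors, were searched on both strands and were in neither sequence and in 22.6% of all promoter windows. No match says only that these letters are not in these 250 bases.

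H3K27ac and H3K4me1 each took nearly as much of the 130.001 kb window as the other, while H3K4me2 took less and H3K4me3 least of the histone marks. H3K27ac peaks covered 66.3 kb in replicate 1 and 62.4 kb in replicate 2, a mean of 64.3 kb ± 2.78 (SD, n = 2). H3K4me1 peaks covered 69.4, 56.4 and 66.9 kb in replicates 1 to 3, a mean of 64.2 kb ± 6.87 (SD, n = 3). The H3K27ac values lay inside the H3K4me1 range, so the difference was smaller than the spread between libraries. H3K4me2 peaks covered 29.5 and 36.5 kb, a mean of 33.0 kb ± 4.89 (SD, n = 2), and did not overlap the range of either mark. H3K4me3 peaks covered 7.86 and 9.07 kb, a mean of 8.46 kb ± 0.849 (SD, n = 2). Open sites took 3.29 and 3.87 kb, a mean of 3.58 kb ± 0.412 (SD, n = 2). An exact rank test of 3 libraries against 2 cannot give a two-sided p below 0.2, nor 2 against 2 one below 0.333, and none was run.

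Each mark covered a larger share of the window than of the chromosomes as a whole in each of its libraries, and H3K27ac, which had chosen the locus, by the largest factor. H3K27ac covered 51.0% and 48.0% of the window against 2.52% and 2.07% of the span of all chromosomes in the same libraries, a ratio of 21.7 ± 2.06 (SD, n = 2). The ratio was 11.7 ± 1.08 for H3K4me1 (n = 3), 7.35 ± 0.675 for H3K4me2 (n = 2), 6.03 ± 0.931 for ATAC (n = 2) and 5.69 ± 0.473 for H3K4me3 (n = 2). Of the bases under H3K27ac in either library, 91.4% were covered in both, against 65.2% over the genome, values that the choice of a wide H3K27ac region bears on and that support nothing. For H3K4me2 these shares were 79.8% and 78.1%, for H3K4me3 78.3% and 73.4%, for ATAC 57.6% and 57.7%, and for H3K4me1, over 3 libraries, 65.8% and 52.2%. No test of these ratios was made, since 1 locus has no replicate. Whether the choice of the locus bears on the ratios of the other marks and of ATAC was not tested.

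**Figure D1:**
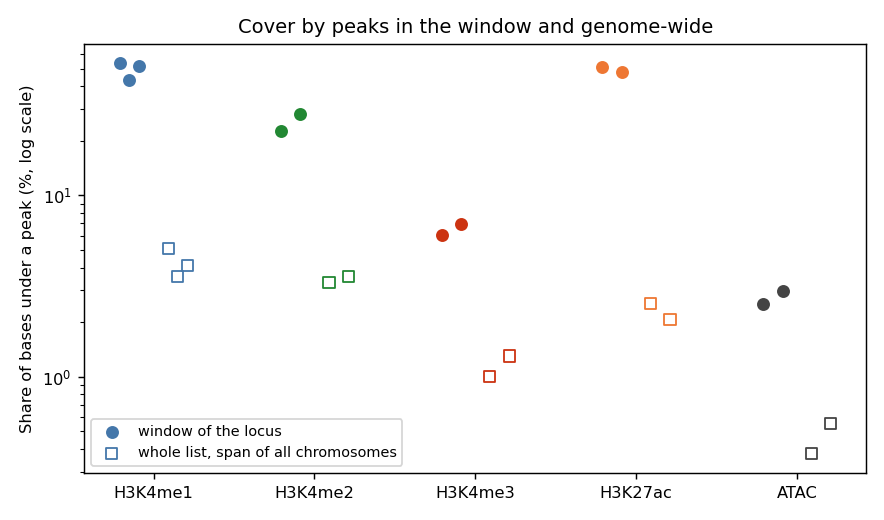
Share of bases under a peak, in percent on a log axis, for each library (points) of the 4 histone marks and ATAC. Filled circles are the 130.001 kb window of the locus and open squares the span of all chromosomes, and in each library shown the window lies above the whole list, by the widest margin for H3K27ac.

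The acetylated stretch was a single peak in H3K27ac replicate 1 and was cut into 3 peaks in replicate 2. Merged over both libraries, it spanned 60.55 kb, chr11:11584151-11644700, the fourth widest of 18236 consensus H3K27ac regions. A consensus region is a merged stretch of peaks that holds a peak of every library of the mark. Replicate 1 had a single peak of 59.642 kb from 11584309 to 11643950, the third widest of its list, with a fold enrichment of 4.86. That is the single value which the authors' peak caller gave to a peak for its signal relative to background, and it serves here only to describe and rank peaks within a list. Replicate 2 had peaks of 17.024, 14.68 and 27.137 kb, which ranked 169, 273 and 45 by width in its list. Both libraries placed the outer edges closely, with starts 158 bp and ends 750 bp apart. The breaks of replicate 2 were short, 884 bp from 11601175 and 825 bp from 11616739, and neither held an ATAC site, H3K4me3 or H3K4me2 of a consensus region. Among the 586 consensus H3K27ac regions of at least 13 kb, 24.4% were split into at least 3 peaks in replicate 2 and 70.0% were 1 peak in replicate 1. The width just above that of the locus was 63.473 kb and the width just below it 60.345 kb.

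**Figure D2:**
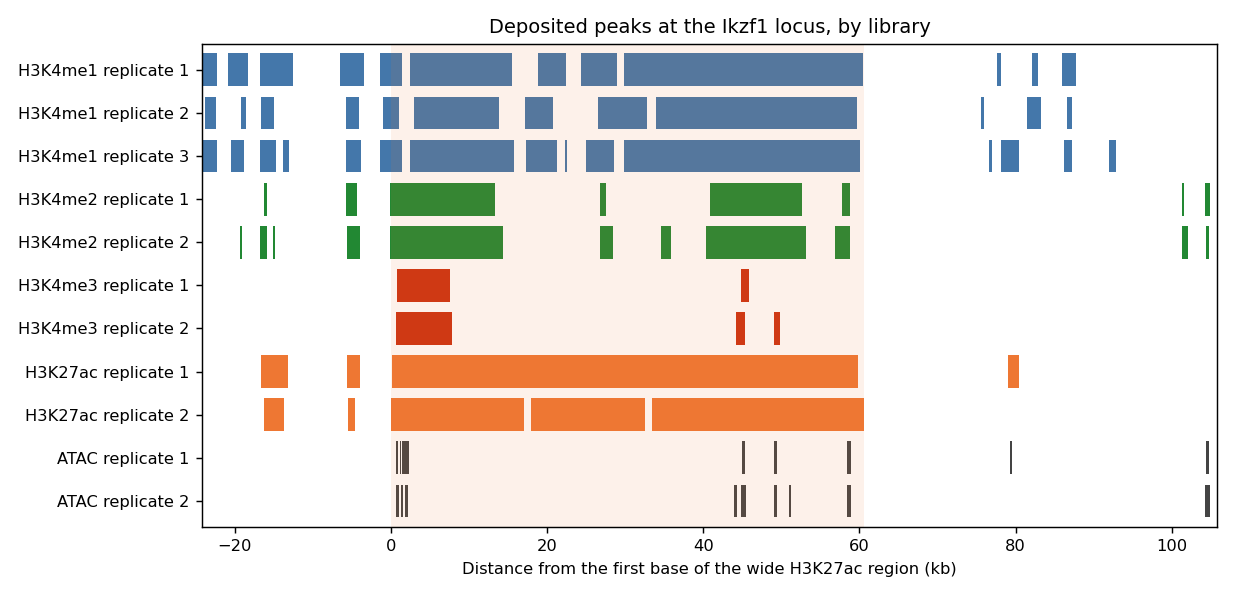
Deposited peaks of the 11 libraries (rows) at the Ikzf1 locus, by distance in kb from the first base of the wide H3K27ac region, which is shaded. H3K4me3 and the open sites sit at the start of the shaded stretch and again toward its end, and H3K27ac replicate 2 shows 2 short breaks.

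The strongest H3K4me3 of the locus stood at the 5′ end of the acetylated stretch, as a single wide peak in both libraries. It ran from 11584904 to 11591800 in replicate 1 (6.897 kb) and from 11584848 to 11592042 in replicate 2 (7.195 kb), so starts were 56 bp and ends 242 bp apart. Either width exceeds the 4252 bp between the RefSeq starts shown above, but whether the peak spans either start was not examined. Its fold enrichment was 12.2 and 14.0, a mean of 13.1 ± 1.30 (SD, n = 2), above 86.4% and 87.0% of the peaks of those lists. The merged region ranked 196 by width among 13600 consensus H3K4me3 regions. H3K4me2 reached further on both sides of it. Its peaks were 13.391 kb and 14.55 kb wide, with fold enrichments of 7.37 and 6.42, and the merged region ranked 342 of 35820 by width.

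H3K4me1 covered most of the strong H3K4me3 region but was broken over an open site inside it in all 3 libraries. Each H3K4me1 library ended a peak between 11585208 and 11585585 and began the next between 11586598 and 11587150. The bases that no library covered, 11585586 to 11586597, made a gap of 1012 bp that lay wholly under H3K4me3 and held 850 bp of an open site. Of the 12306 consensus ATAC sites of the genome with H3K4me3, 22.9% held at least 1 bp outside H3K4me1 in all 3 libraries. At the locus 1 of 3 such sites did, so the count is too small to set against that share. The H3K4me1 peak before the gap had fold enrichments of 3.17, 2.35 and 2.55 and the one after it 3.61, 2.93 and 3.33 in replicates 1 to 3.

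Along the acetylated stretch the other marks were uneven, and a middle part of 25.932 kb had H3K27ac and H3K4me1 with little else. The stretch was divided after its values were seen, at the inner edges of the consensus H3K4me2 regions wider than 5 kb. The first section, 11584151 to 11598583, was 14.433 kb long, the middle section ran from 11598584 to 11624515, and the last, 11624516 to 11644700, was 20.185 kb long. H3K27ac covered 98.9% and 100% of the first section, 100% and 93.4% of the middle and 96.3% and 100% of the last in replicates 1 and 2. H3K4me2 covered 92.4% and 100% of the first, 2.91% and 10.8% of the middle and 63.6% and 73.5% of the last. Since H3K4me2 set the sections, these values describe them and are no finding. H3K4me3 covered 48.8% ± 1.46 (SD, n = 2) of the first section and 7.03% ± 3.16 of the last, and no base of the middle in either library. H3K4me1 covered 89.3% ± 6.04 (SD, n = 3) of the first, 71.3% ± 7.84 of the middle and 97.7% ± 1.79 of the last. Its ranges over libraries were 82.3% to 93.0% in the first section, 62.3% to 76.3% in the middle and 95.9% to 99.4% in the last. The sections were cut with the values of H3K4me1 and H3K4me3 known, so that these ranges do not overlap is a description as well.

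**Figure D3:**
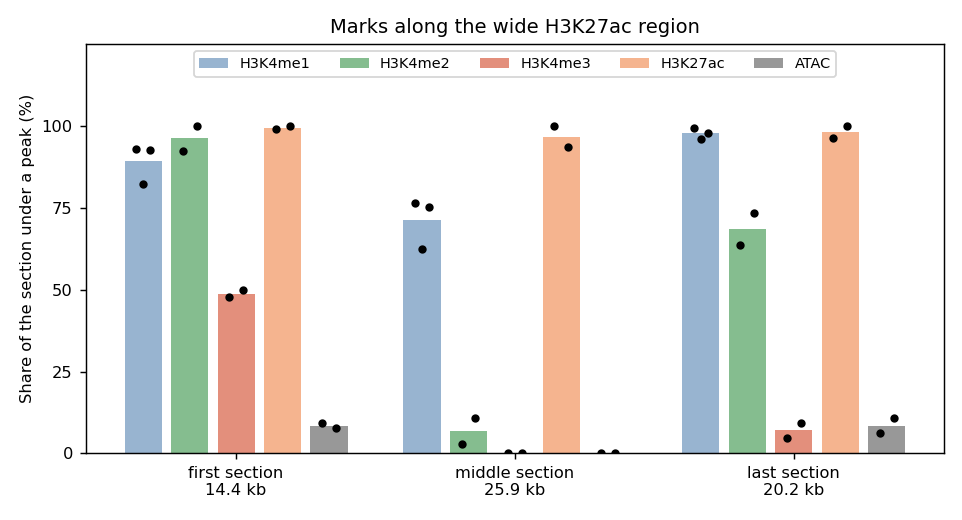
Share of each section of the wide H3K27ac region under a peak, in percent. Bars are means over libraries (3 for H3K4me1, 2 for each other group) and points single libraries. H3K27ac fills all 3 sections, and the middle section has no H3K4me3 and no ATAC peak in any library.

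Within single libraries the caller's fold enrichment was lower for peaks in the middle of the stretch than for those that reached its 3′ end. In H3K27ac replicate 2 the 3 peaks, from 5′ to 3′, had fold enrichments of 3.80, 2.74 and 4.89 and −log10 q of 12.1, 2.47 and 18.3. The middle peak was above 49.3% of that list by fold enrichment and the last above 96.6%. Replicate 1 gave 1 value for the whole stretch and cannot show this. The H3K4me1 peaks that began and ended inside the middle section had fold enrichments of 2.41 and 2.59 in replicate 1, 2.55 and 2.57 in replicate 2 and 2.33 to 2.61 in replicate 3. Their −log10 q was 1.33 to 3.25 over the 3 libraries. None of them, nor the middle H3K27ac peak of replicate 2, reached the −log10 q of 5 used as an alternative cut. The H3K4me1 peak over the last section had 4.97, 3.84 and 4.09, above 98.8%, 97.4% and 97.7% of its list. That peak was the widest of the locus for this mark, with 30.524, 25.689 and 30.2 kb. It began at 11614063, 11618177 and 11614060, inside the middle section, and its single value does not say where along it the signal was highest. The peaks of highest fold enrichment were thus those at the 5′ end for H3K4me3 and H3K4me2 and, in all 3 libraries, the one that reached the 3′ end for H3K4me1. Fold enrichments of different antibodies were not compared as levels.

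Proerythroblast chromatin had open sites toward both ends of the acetylated stretch and none, in either peak list, across the long part between them. Both libraries called 6 sites in the window, 5 of them inside the stretch. Of all 18236 consensus H3K27ac regions 25, or 0.137%, held at least 5 such sites, a cut set at the count of the locus itself. A wider region has more room for them, and among the 586 regions of at least 13 kb 96.2% held fewer than 5. Replicate 1 had 8 peaks in the window and replicate 2 had 9. Of the replicate 1 peaks 1 met no peak of replicate 2, against 7.74% of that list, and of the replicate 2 peaks 2 met none of replicate 1, against 42.4%. These 3 single-library peaks had −log10 q of 3.21, 5.02 and 9.63, and all lay in acetylated chromatin of at least 1 library.

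The 2 sites at the 5′ end lay under the strong H3K4me3 peak. The nearer one to the edge, 11584804 to 11585174, had fold enrichments of 4.18 and 5.18 in ATAC replicates 1 and 2. Site 11585288 to 11586435, the widest of the locus at 1148 bp, was made of 2 peaks in each library and had fold enrichments of up to 4.19 and 3.73. Both sites met peaks of H3K4me2, H3K4me3 and H3K27ac in every library of those marks, and H3K4me1 met the one nearer the edge in 3 libraries and the wider one in 2. Their fold enrichments exceeded those of 15.9% and 38.2%, and of 16.0% and 9.98%, of the peaks in their lists, so they ranked low by that measure. Their −log10 q exceeded that of 40.1% and 63.0%, and of 42.6% and 44.2%, so by it they stood nearer the middle of the lists.

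Toward the 3′ end of the stretch 3 more sites were called in both libraries. They held the ATAC peaks of highest fold enrichment in the acetylated part. Site 11629016 to 11629593 had fold enrichments of 6.67 and 7.35, a mean of 7.01 ± 0.484 (SD, n = 2), with −log10 q of 30.3 and 54.9 and summits 4 bp apart. Site 11642575 to 11643064, which ends 1636 bp before the stretch does, had 6.22 and 6.33, a mean of 6.27 ± 0.0788, with summits 3 bp apart. Site 11633224 to 11633575 had 4.54 and 3.91. By fold enrichment the first and the second of these 3′ sites were higher in both libraries than every site at the 5′ end. The third was above both 5′ sites in replicate 1 and between them in replicate 2. Replicate 2 alone had further peaks at 11628066 to 11628492, with a fold enrichment of 2.71, and at 11635132 to 11635456, with 3.82.

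H3K4me3 at the 3′ sites was slight and differed between libraries. Over the site at 11629016 both H3K4me3 libraries had a peak, of 967 bp with a fold enrichment of 2.99 in replicate 1 and of 1165 bp with 2.70 in replicate 2. Only 6.56% and 3.56% of their lists had lower values. Of all 13600 consensus H3K4me3 regions, 1.8% had fold enrichments under 3 in both libraries. Over the site at 11633224 replicate 2 alone had H3K4me3, with 2.58, and at 11642575 neither library had it. All 3 sites met H3K4me1 in 3 of 3 libraries and H3K4me2 and H3K27ac in 2 of 2. By consensus regions 3 of the 6 sites shared by both ATAC libraries carried all 4 marks, against 57.3% of consensus ATAC sites genome-wide, and 2 carried every mark but H3K4me3, against 13.5%. The sites inside the stretch carry H3K27ac by the choice of the locus, and 6 sites are too few to set against these shares. With mark peaks of −log10 q of at least 5, no site carried all 4 marks and 3 carried every mark but H3K4me3. At the 5′ end H3K4me3 passed that cut, with −log10 q of 51.4 and 76.6 in replicates 1 and 2. The H3K4me1 peaks of replicate 2 there did not, with 3.74 and 4.76, so the 5′ sites lost H3K4me1 and not H3K4me3. With no such cut but without H3K4me3 replicate 1, the number with every mark but H3K4me3 was 1.

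**Figure D4:**
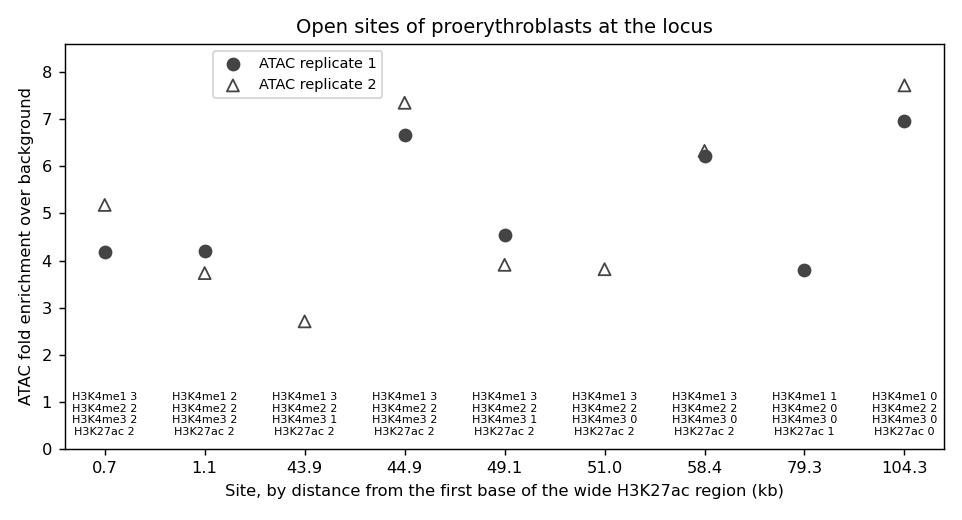
ATAC fold enrichment over the caller's background at each open site of the window, by library, with sites in order of their distance in kb from the first base of the wide H3K27ac region. Numbers under each site count the libraries of each mark with a peak there. The sites at 44.9, 58.4 and 104.3 kb are highest in both libraries, and 3 sites have a point of 1 library only.

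Between the 5′ and the 3′ sites 42.58 kb of the acetylated stretch held no consensus ATAC site, the longest such part in any of the 586 H3K27ac regions of at least 13 kb. It measured 41.63 kb when peaks of either library counted as open, and it remained the longest of the 586 then and with each ATAC library alone (42.677 and 41.658 kb). The median over those regions was 9.56 kb, and their median width was 17.3 kb. Among the 10 widest H3K27ac regions the other 9 had longest parts of 9.82 to 41.002 kb, so the nearest was 1.58 kb shorter. No test of this difference was made. The length of such a part is bounded by the width of its region, and width chose the locus. The region ranked 18 by width spanned 43.196 kb and the one ranked 19 spanned 42.247 kb. Regions from rank 19 on thus could not have held a part longer than 42.58 kb, so the rank among 586 is mostly set by width. Compared with the same 9 regions, the locus had the second most consensus ATAC sites, 5 against 1 to 18, and its share of bases under H3K4me3, 14.5%, was lower in 7 and higher in 2 of them. Consensus H3K4me1 took 92.8% of its bases and H3K4me2 51.0%, ranks of 5 and 6 among the 10. All 3 shares were below the medians of the 586 regions, which were 18.4% for H3K4me3, 94.1% for H3K4me1 and 75.2% for H3K4me2.

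**Figure D5:**
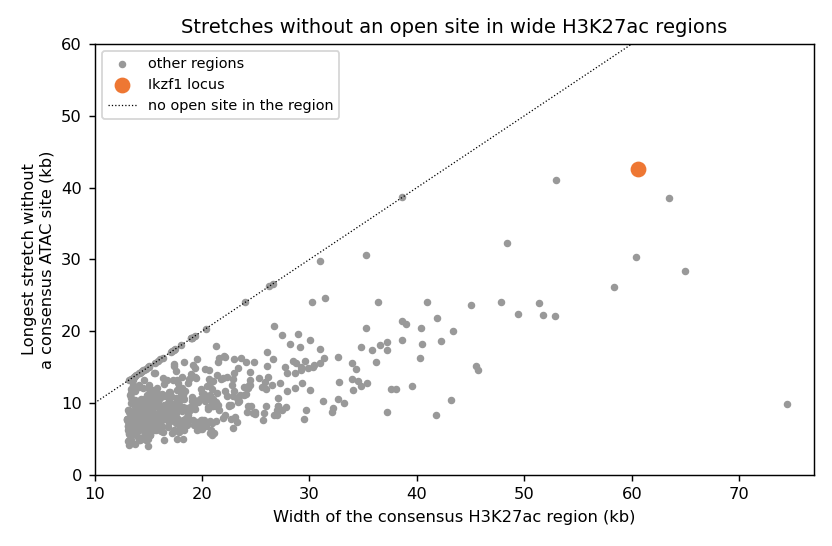
Longest part without a consensus ATAC site, in kb, against the width of the region, in kb, for the 586 consensus H3K27ac regions of at least 13 kb. Each point is a region, the locus is the large point at 60.55 and 42.58 kb, and points on the dotted line hold no site at all.

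Upstream of the stretch 2 acetylated regions had no open site in either ATAC library. The nearer one, 11578513 to 11580217, had H3K27ac fold enrichments of 3.36 and 3.37. It met an H3K4me2 peak in both libraries, with fold enrichments of 5.02 and 4.29, and an H3K4me1 peak in all 3, with 4.14, 3.76 and 3.67. Those H3K4me1 values exceeded 95.1%, 96.8% and 94.3% of their lists. The farther region, 11567513 to 11571048, was weaker, with H3K27ac fold enrichments of 2.87 and 2.50, H3K4me1 between 2.47 and 2.74 over the 3 libraries and H3K4me2 between 2.38 and 2.56 over both. Neither held H3K4me3. Of the 9231 consensus H3K27ac regions without H3K4me3, 59.6% held no ATAC peak of either library, and 2 regions are too few to set against that share.

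Downstream, H3K27ac and the wide H3K4me1 peak ended within a short distance of each other. H3K4me3 had ended before them, at 11629964 in replicate 1 and 11633970 in replicate 2. Little of the rest of the window was under a peak. The last H3K27ac base was 11643950 or 11644700 by library and the last base of the wide H3K4me1 peak 11644586, 11643865 or 11644259. The 45.3 kb that follow run to the end of the window, past the approximate end of the gene. In them H3K27ac covered 3.15% in replicate 1 and nothing in replicate 2, H3K4me3 covered nothing, and H3K4me1 covered 6.30%, 6.09% and 10.2%. The H3K4me1 peaks there numbered 3, 3 and 4, none with a fold enrichment above 2.44, and a single consensus region, 11670137 to 11671869, held a peak of every library. H3K4me2 had 2 consensus regions there, both past the approximate end of the gene. Of these, 11685421 to 11686241 had fold enrichments of 2.17 and 2.00 and no ATAC peak. The H3K27ac peak of replicate 1, 11663157 to 11664581, held an ATAC peak of replicate 1 alone, with a fold enrichment of 3.79, and met H3K4me1 in replicate 3 alone.

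The highest ATAC fold enrichment of the window lay outside the acetylated stretch, beyond the approximate end of the gene. Site 11688465 to 11689067 had 6.97 and 7.72 in replicates 1 and 2, a mean of 7.35 ± 0.530 (SD, n = 2), with summits 2 bp apart. Its −log10 q of 14.7 and 22.8 was below the 30.3 and 54.9 of the site at 11629016, so by that measure the order of the 2 sites is the opposite. The mean fold enrichment differed from the mean of 7.01 at that site by less than the spread between libraries, though it was the higher in both. The site met H3K4me2 in both libraries, with fold enrichments of 3.43 and 2.70, and no peak of H3K4me1, H3K4me3 or H3K27ac in any library. Of the 16271 consensus ATAC sites 0.602% had that combination in all libraries, and 2.37% had it by consensus regions.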

How the data were processed

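The members and comparisons were chosen with earlier results of these data known. Per the submitters' processing notes the authors used Trimmomatic 0.32, Bowtie 1.0.1, SAMtools and MACS2 with build mm9. For the settings, the control and the MACS2 version the sources used here give nothing. The deposited lists are 1 per library, broad for ChIP and narrow with summits for ATAC. The deposited values of a peak are its fold enrichment (a ratio to background), its −log10 p and −log10 q, and a score that follows 10 times the −log10 q. Read counts are not part of the lists, so depth is unknown and differences in peak number may come from it. For H3K4me2 the labels name antibodies of different suppliers in different fields, and which was used is unsettled. The labels of the ATAC samples carry a ChIP protocol and do not say how proerythroblasts were obtained. The input library was not analysed here.

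Positions are on mm9 and count from 1. The last peak on chromosome 1 ends at 197068858, past the highest gene end of the GRCm38 table, 195291439, so no coordinates of that table were placed on the peaks. The 7 mitochondrial peaks entered no count but that of the lists. Overlap meant at least 1 bp. Cover was counted inside the window, and genome shares over the 2568.43 Mb between the first and last peaks of the chromosomes. A consensus region was a merged stretch with a peak of every library. No test was run. Only Ikzf1 is named, and every consensus region and ATAC peak of the window was eligible for description. Interval code (Python 3.11.15, pandas 2.3.3, numpy 2.4.6) was tested on simulated data. Alternatives were −log10 q of at least 5, joining peaks within 1 or 12.5 kb, bases covered in every library, a stricter ATAC overlap and leaving out each library.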

Additional observations from a re-analysis of the deposited data

How the results depend on the processing

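Of 86 recomputed values for 20 results, 62 stayed within the spread between libraries, or within 1.5 times for counts. With −log10 q of at least 5, mean cover fell to 41.7 kb for H3K4me1, 51.9 kb for H3K27ac and 7.05 kb for H3K4me3, and consensus regions numbered 2 for H3K4me1, 5 for H3K4me2, 1 for H3K4me3 and 1 for H3K27ac, against 9, 8, 2 and 3. At that threshold, added after seeing the data for the classes of sites, 0 ATAC sites carried all 4 marks and 3 carried every mark but H3K4me3. Bases covered in every library came to 50.951 kb for H3K4me1, 29.282 kb for H3K4me2, 7.433 kb for H3K4me3, 61.463 kb for H3K27ac and 2.615 kb for ATAC, since this count can only be smaller. Joining peaks within 12.5 kb left 2 regions of H3K4me1, 2 of H3K4me2, 1 of H3K27ac and 3 of ATAC. The widest H3K27ac region was 59.642 kb without replicate 2, 27.137 kb without replicate 1, 26.387 kb over bases of both libraries and 89.215 kb when joined, so its unbroken width rests on replicate 1. Leaving out 1 H3K27ac library gave 4 to 5 regions of that mark. Leaving out 1 mark library gave 1 to 2 ATAC sites with every mark but H3K4me3. The part without an open site was 41.63 kb with peaks of either ATAC library and 41.658 to 42.677 kb with 1 ATAC library, alternatives added after seeing the data. No paired analysis was possible because no result comes from a test. Date-like tags in the titles are shared by H3K4me2 replicate 1, H3K4me3 replicate 2 and H3K27ac replicate 1, and by H3K4me2 replicate 2 and H3K4me3 replicate 1, so equal replicate numbers do not follow these tags, and what the tags stand for is not stated. Depth is unknown, so a mark without a peak was not detected and may be present.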
